A study of Homo sapiens with 12 samples.

Results

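The genes described are 10 members of the AP-1 and immediate early group: the JUN genes JUN, JUNB and JUND, their bZIP partners FOS, FOSL2 and ATF3, the zinc finger factor EGR1, and the immediate early response genes IER2, IER3 and IER5. They were taken by gene name from the deposited tables, and all 10 were found among 19038 transcripts of the RNA table and 19037 of the footprint table. The samples were xenografts of 22Rv1, a human prostate cancer cell line, implanted under the skin of male immunodeficient NSG mice aged 6 to 8 weeks, which keep their own stromal and some myeloid cells. Mice received an intraperitoneal injection of zotatifin at 0.3 mg/kg in 5% dextrose, or of 5% dextrose alone as vehicle, and tumours were taken 6 h later. There were 3 tumours per treatment, and each gave a library of ribosome footprints (the mRNA pieces that ribosomes protect from nuclease) and a library of total RNA.

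AP-1 is a dimer of leucine zipper proteins that binds DNA, in which a JUN protein pairs with another JUN, a FOS or an ATF protein. Immediate early genes are transcribed within minutes of growth signals or stress, through kinase cascades that act on factors already present, and most of their mRNAs and proteins are short-lived. Zotatifin clamps the RNA helicase eIF4A onto purine-rich stretches of mRNA and so hinders the scanning ribosome. Because RNA and footprints were measured in the same tumours, the question for each member is whether a higher RNA level was matched by more footprints.

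RNA libraries held 6594884 to 8153674 counts with zotatifin and 5761921 to 7121802 with vehicle, and footprint libraries held 838135 to 1540867 with zotatifin and 1592316 to 2013968 with vehicle. Levels are given in CPM, counts relative to the size of the library after TMM scaling, which sets aside any shift common to all mRNAs. The prostate label was checked on 12 markers of 22Rv1 tumours, among them the homeobox factor HOXB13, and all 12 were detected in both assays. Their summed RNA was 5251 to 5698 CPM with zotatifin and 4559 to 5441 CPM with vehicle, and 0 of the 12 changed in RNA by edgeR (2 higher and 1 lower at an unadjusted p under 0.05, and 1 higher by DESeq2), while 3 rose and 1 fell in footprints. The summed RNA of 12 fibroblast markers was 70.5 to 133 CPM with zotatifin and 220 to 367 CPM with vehicle, and that of 11 myeloid markers was 11.8 to 23.1 and 17.5 to 60.9 CPM. In footprints the fibroblast sum was 146 to 272 CPM with zotatifin and 480 to 823 CPM with vehicle. The myeloid sum was 39.5 to 73.6 and 84.4 to 391 CPM. Of the fibroblast markers tested, 4 of 7 fell in RNA and 5 of 7 in footprints. Of the myeloid markers tested, 1 of 3 fell in RNA and 2 of 5 in footprints. None of these rose. Of 8 endothelial markers, 2 were tested in RNA with 0 called, and 0 were tested in footprints. Of these markers only TYROBP was at 0 in every RNA library, and the part of the other cells in the results below was not tested. In bulk tumours, fewer cells of a type and less RNA per cell cannot be told apart.

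The promoters of the 3 members whose RNA rose (JUN, IER2 and IER5) and of EGR1, whose RNA was not called, are printed as a description. Their part in the RNA differences was not tested. Each is the 250 bases before the outermost RefSeq start of the gene on GRCh38.p14, 5′ to 3′ on the gene's strand, and capitals mark the motifs found. JUN lies at chr1:58784048-58784297 on the minus strand, IER2 at chr19:13150161-13150410, IER5 at chr1:181088450-181088699 and EGR1 at chr5:138465229-138465478, each of these on the plus strand.
JUN: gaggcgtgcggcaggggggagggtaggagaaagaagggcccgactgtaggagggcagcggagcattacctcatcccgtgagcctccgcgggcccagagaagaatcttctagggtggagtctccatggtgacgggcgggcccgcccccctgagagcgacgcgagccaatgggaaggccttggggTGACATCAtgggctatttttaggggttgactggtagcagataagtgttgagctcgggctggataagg
IER2: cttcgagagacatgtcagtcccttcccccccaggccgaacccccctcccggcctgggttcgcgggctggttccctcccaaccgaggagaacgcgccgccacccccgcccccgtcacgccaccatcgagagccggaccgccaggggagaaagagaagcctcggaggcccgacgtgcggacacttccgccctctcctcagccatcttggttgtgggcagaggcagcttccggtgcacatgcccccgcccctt
IER5: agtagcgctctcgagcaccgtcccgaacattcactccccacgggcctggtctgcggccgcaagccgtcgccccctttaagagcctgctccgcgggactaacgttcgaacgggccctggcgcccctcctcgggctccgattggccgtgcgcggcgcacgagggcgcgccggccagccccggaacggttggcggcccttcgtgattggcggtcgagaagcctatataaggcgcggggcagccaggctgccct
EGR1: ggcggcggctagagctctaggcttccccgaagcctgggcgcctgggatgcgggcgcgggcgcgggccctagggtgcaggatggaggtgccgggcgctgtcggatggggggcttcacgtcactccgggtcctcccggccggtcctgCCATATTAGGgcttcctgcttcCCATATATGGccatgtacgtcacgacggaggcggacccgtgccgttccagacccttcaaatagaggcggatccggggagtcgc
The motifs searched, on either strand, were the CRE (TGACGTCA), a variant of it (TGACATCA), the AP-1 site (TGANTCA), the TATA motif (TATAAA) and the CArG box, the site of serum response factor. Sequences of 9 of the 10 members were matched, all but IER3. The CRE variant, which 2.45% of 27305 promoters hold, was found in 2 members, JUN and ATF3. Its first base was 67 bases before the start in JUN and 123 bases before it in ATF3. For ATF3 the start used may not be that of the counted transcript, so this match may belong to another promoter of the gene. Within these 250 bases the EGR1 promoter held 2 CArG boxes, a motif found in 1.14% of all promoters and in none of the other 8 members. Sites further upstream were not searched in any gene. JUND held the CRE (1.77% of promoters), and JUNB and FOS held the TATA motif (11.1%), each in 1 copy. By exact letters, IER2 and IER5 matched none of the 5 motifs, and no member held the AP-1 site (6.60% of promoters). Near matches to the TATA motif, such as tatataag in the IER5 sequence above, were not counted. GC content was 62.0% for JUN, 69.6% for IER2, 70.4% for IER5 and 68.4% for EGR1, where the median of all promoters was 58.0%. A match describes these letters only.

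In RNA, 3 of the 10 members rose with zotatifin (JUN, IER2 and IER5) and 0 fell, where 0.808% of the 13118 genes tested rose, 0.907% fell and 1.72% changed in either direction. At an unadjusted p under 0.05, edgeR had 5 members higher and 1 lower, and DESeq2 called 4 higher and 0 lower. The median log2 change of the 10 members was 0.34, and that of all genes tested was −0.0023. In 6 of the 10 members the libraries of the treatments did not overlap (5 higher, 1 lower), which held for 23.1% of all genes tested.

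JUN (ENST00000371222, chromosome 1, 58780791 to 58784047, minus strand), the defining AP-1 subunit, had 333, 466 and 326 CPM of RNA in zotatifin tumours 1 to 3, against 103, 123 and 133 CPM in vehicle tumours 1 to 3. The lowest zotatifin tumour stood far above the highest vehicle tumour. The change was 3.13-fold (95% interval 2.53 to 3.86), a log2 change of 1.64 ± 0.15 (SE, n = 3 each, adjusted p = 1.9e-06), the 6th largest among all genes tested. This call held under every alternative tried, with log2 changes of 1.46 to 1.73.

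IER2 (ENST00000292433, chromosome 19, 13150411 to 13154911), a short nuclear protein made early after growth stimulation, had 113, 110 and 103 CPM of RNA in zotatifin tumours, against 66.6, 74.8 and 72.5 CPM in vehicle tumours. The groups did not overlap, and RNA rose 1.53-fold (log2 change 0.61 ± 0.12, SE, adjusted p = 0.014). IER5 (ENST00000367577, chromosome 1, 181088700 to 181092900), a related early gene that acts on heat shock factor 1, had 47.2, 52.2 and 48.2 CPM of RNA in zotatifin tumours, against 34.1, 32.1 and 31.2 CPM in vehicle tumours. It rose 1.52-fold with no overlap (log2 change 0.60 ± 0.14, SE, adjusted p = 0.032). The RNA call of IER2 was lost without zotatifin tumour 1 or vehicle tumour 1 or 3 (highest adjusted p = 0.119). The IER5 call was lost in 5 of 6 fits that left out a tumour (highest adjusted p = 0.130), while the log2 changes stayed between 0.56 and 0.65 for IER2 and between 0.56 and 0.63 for IER5.

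RNA of the other JUN genes was apart between the treatments without passing the test. JUNB (ENST00000302754, chromosome 19, 12791486 to 12793315), a JUN protein with weaker activation than JUN, had 41.7, 47.7 and 37.7 CPM in zotatifin tumours, against 31.5, 31.6 and 33.2 CPM in vehicle tumours (log2 difference 0.40 ± 0.15, SE, adjusted p = 0.155). JUND (ENST00000252818, chromosome 19, 18279694 to 18281622), the JUN gene expressed without stimulation in many tissues, had 403, 481 and 420 CPM, against 336, 343 and 312 CPM with vehicle (log2 difference 0.40 ± 0.12, SE, adjusted p = 0.093). Every zotatifin tumour was above every vehicle tumour for each of these genes. DESeq2 and the fit with no low-count filter called JUND (adjusted p = 0.030 and 0.048), as did the authors' deposited table (adjusted p = 0.018).

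The partners of the JUN proteins did not pass the test in RNA. FOS (ENST00000303562, chromosome 14, 75278828 to 75282230), the classic early partner of JUN, was low, at 5.56, 7.01 and 5.95 CPM in zotatifin tumours, against 2.62, 9.17 and 10.0 CPM in vehicle tumours. Vehicle tumour 1 was the lowest of the 6 and the other vehicle tumours the highest, so the groups overlapped (log2 difference −0.25 ± 0.36, SE, adjusted p = 0.749). FOSL2 (ENST00000264716, chromosome 2, 28392858 to 28417317), a FOS family protein made later, had 27.8, 23.1 and 25.0 CPM in zotatifin tumours, against 18.4, 23.1 and 20.9 CPM in vehicle tumours (log2 difference 0.29 ± 0.17, SE, adjusted p = 0.389). The lowest zotatifin tumour and the highest vehicle tumour were level. ATF3 (ENST00000341491, whole gene at chromosome 1, 212565407 to 212620777) is a stress-induced repressor and partner of JUN. ATF3 had 38.7, 44.1 and 33.9 CPM in zotatifin tumours, against 36.0, 43.2 and 37.1 CPM in vehicle tumours. Its log2 difference was 0.0014, with a 95% interval from −0.31 to 0.31.

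EGR1 (ENST00000239938, chromosome 5, 138465479 to 138469303), a zinc finger factor induced through serum response factor, was the 1 member with lower RNA in every zotatifin tumour. It had 24.8, 20.9 and 26.2 CPM with zotatifin, against 36.9, 30.8 and 32.8 CPM with vehicle (log2 difference −0.48 ± 0.16, SE, adjusted p = 0.120). IER3 (ENST00000259874, chromosome 6, 30743199 to 30744547), an early gene linked to cell survival, was near the floor of the RNA data, at 26 to 38 counts per library, and its groups overlapped (log2 difference −0.054 ± 0.34, SE, adjusted p = 0.950). JUNB overlaps HOOK2 on the other strand, and FOSL2 and IER3 overlap the antisense RNAs FOSL2-AS1 and IER3-AS1. The RNA kit is stranded, but whether the counting used the strand is not given in the sources used here, so reads of these pairs cannot be told apart.

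**Figure D1:**
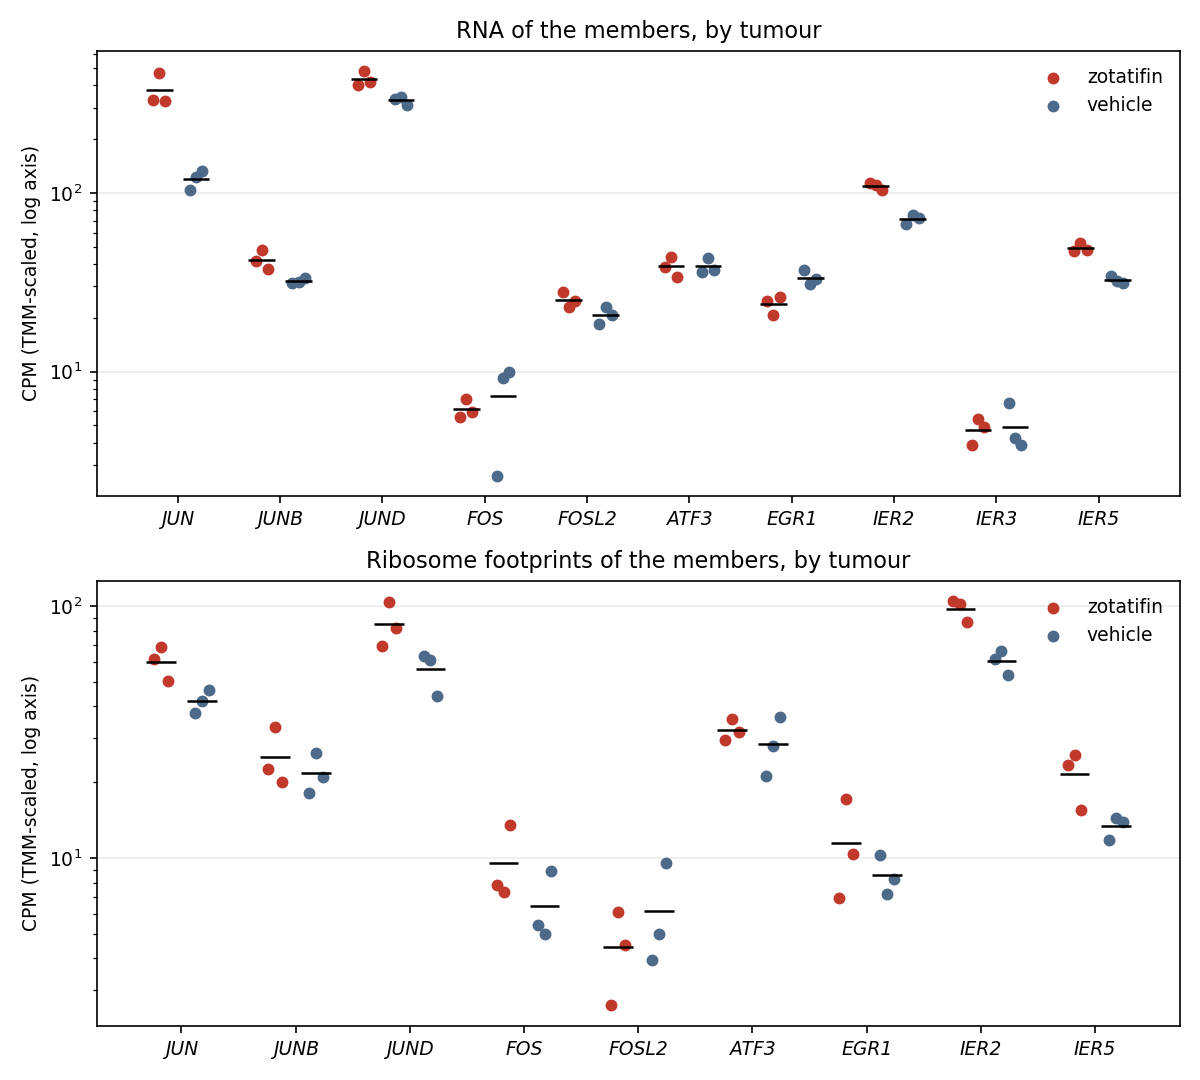
Levels of the members in each tumour, in TMM-scaled CPM on log axes, with RNA above and footprints below. Points are the 3 tumours of a treatment, zotatifin in red on the left and vehicle in blue on the right, and bars are means. JUN RNA with zotatifin lies at 326 to 466 CPM, above all vehicle tumours, while its footprints lie at 50.5 to 68.7 CPM, close above those of vehicle. IER3 is left out of the footprint panel because 2 libraries had 0 counts.

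In footprints, 8 of the 10 members passed the filter on low counts, all but FOSL2 and IER3. Of these 8, 2 rose with zotatifin (IER2 and JUND) and 0 fell, where 3.22% of the 9544 genes tested rose, 3.92% fell and 7.14% changed in either direction. At an unadjusted p under 0.05, edgeR had 4 members higher and 0 lower. DESeq2 called 1 higher (IER2) and 0 lower, but it gave an adjusted p only to JUN, JUND and IER2. For JUNB, FOS, ATF3, EGR1 and IER5 it gave none, so these were not judged by DESeq2 in footprints. In 4 of the 10 members (JUN, JUND, IER2 and IER5) every zotatifin tumour was above every vehicle tumour. Over all genes tested 12.9% stood apart in this direction and 26.4% in either direction.

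IER2 had 105, 102 and 86.7 CPM of footprints in zotatifin tumours, against 61.9, 66.6 and 53.4 CPM in vehicle tumours. The groups stood well apart, and footprints rose 1.59-fold (95% interval 1.30 to 1.95, log2 change 0.67 ± 0.14, SE, adjusted p = 0.0039). This call held under all 12 alternatives tried for it, with log2 changes of 0.59 to 0.77. It was the 1 member called in both RNA and footprints.

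JUND had 69.4, 104 and 82.1 CPM of footprints in zotatifin tumours, against 63.4, 61.1 and 43.8 CPM in vehicle tumours. Zotatifin tumour 1 lay only just above vehicle tumour 1. Footprints rose 1.48-fold (log2 change 0.57 ± 0.16, SE, adjusted p = 0.031), a call lost with DESeq2 (adjusted p = 0.052) and without zotatifin tumour 2 or 3 or vehicle tumour 1 or 3 (adjusted p up to 0.147).

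JUN had 61.6, 68.7 and 50.5 CPM of footprints in zotatifin tumours, against 37.8, 42.2 and 46.4 CPM in vehicle tumours. Each zotatifin tumour was above each vehicle tumour by a narrow gap, and the raw counts were 71, 56 and 78 with zotatifin and 77, 76 and 73 with vehicle, in libraries of different size. The ratio was 1.41-fold (95% interval 1.11 to 1.78, log2 difference 0.49 ± 0.17, SE, adjusted p = 0.066) and did not pass the test. It passed when the filter was set at a mean count of 50 (adjusted p = 0.048) and without zotatifin tumour 3 (adjusted p = 0.040), and the adjusted p ran up to 0.265 over all 12 alternatives.

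IER5 had 23.4, 25.8 and 15.5 CPM of footprints in zotatifin tumours, against 11.8, 14.4 and 14.0 CPM in vehicle tumours, from 21 to 27 counts per library. Zotatifin tumour 3 was close to the vehicle tumours and the other 2 far above them. The ratio of 1.56-fold resembled that in RNA in size, with a wide 95% interval of 1.07 to 2.28 (log2 difference 0.64 ± 0.27, SE, adjusted p = 0.149).

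The remaining members overlapped between the treatments in footprints. JUNB had 22.6, 33.1 and 20.1 CPM with zotatifin, against 18.2, 26.1 and 21.0 CPM with vehicle (log2 difference 0.16 ± 0.24, SE, adjusted p = 0.743). ATF3 had 29.5, 35.6 and 31.7 CPM, against 21.1, 27.8 and 36.2 CPM with vehicle (0.19 ± 0.21, adjusted p = 0.636). Neither moved beyond the spread between tumours. EGR1 had 8, 14 and 16 footprint counts with zotatifin and 21, 13 and 13 with vehicle, or 6.94, 17.2 and 10.3 CPM against 10.3, 7.22 and 8.26 CPM (log2 difference 0.33 ± 0.34, SE, adjusted p = 0.618). FOS had 9, 6 and 21 counts with zotatifin and 11, 9 and 14 with vehicle (0.68 ± 0.37, adjusted p = 0.289). At these depths only large differences could be detected. FOSL2 had 3, 5 and 7 counts with zotatifin and 8, 9 and 15 with vehicle, and IER3 had 0, 2 and 3 counts in each treatment, so neither was tested.

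**Figure D2:**
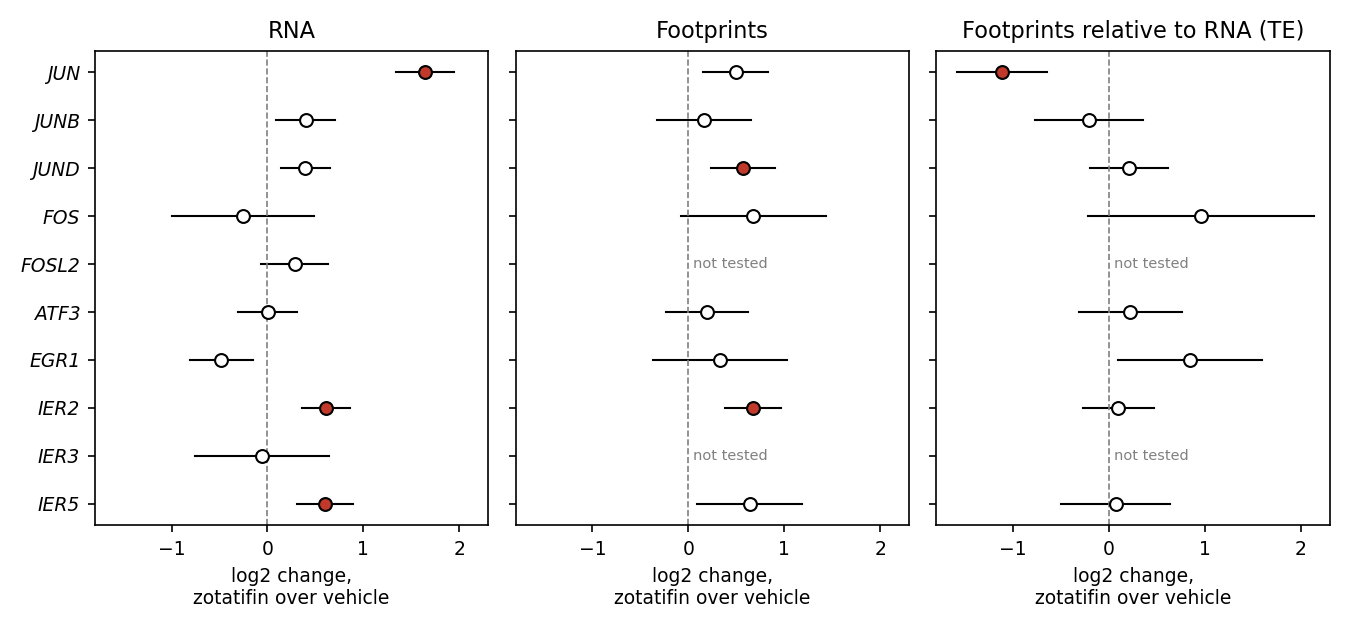
Log2 change of each member, zotatifin over vehicle, in RNA, footprints and translational efficiency, with 95% intervals as lines. Filled points passed the adjusted p of 0.05. JUN stands at 1.64 in RNA and −1.12 in translational efficiency, while IER2 stands at 0.61 in RNA and 0.67 in footprints.

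Translational efficiency (TE) is the footprint level relative to the RNA level, and its change is the interaction term of a fit over the 12 libraries (assay by treatment). Of the 8 members tested, 1 fell (JUN) and 0 rose, where 1.22% of the 9454 genes tested fell, 0.476% rose and 1.69% changed in either direction. At an unadjusted p under 0.05, edgeR had 1 member higher (EGR1) and 1 lower, and DESeq2 called 0 higher and 1 lower. With the tumour as a block, a fit that uses the pairing of footprints and RNA within a tumour, 819 genes were called in place of 160, and JUN was again the only member among them.

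JUN had a log2 ratio of footprint to RNA CPM of −2.43, −2.76 and −2.69 in zotatifin tumours, against −1.45, −1.55 and −1.51 in vehicle tumours. The vehicle tumours lay within a narrow band, and every zotatifin tumour lay below it. TE fell to 0.460 of its vehicle level (95% interval 0.332 to 0.638, log2 change −1.12 ± 0.23, SE, adjusted p = 0.0080). With the tumour as a block the log2 change was −1.09 (adjusted p = 8.7e-06), and in the authors' deposited table it was −1.14 (FDR 1.1e-11). The call was lost without vehicle tumour 1 (log2 change −1.10, adjusted p = 0.056). JUN footprints were thus 1.41-fold those of vehicle where JUN RNA was 3.13-fold.

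For IER2 and IER5 the rise in RNA stood beside a footprint difference of the same size. IER2 had log2 ratios of −0.11, −0.11 and −0.25 in zotatifin tumours, against −0.11, −0.17 and −0.44 in vehicle tumours. Its TE change of 1.07-fold was not called (95% interval 0.825 to 1.38, log2 difference 0.094 ± 0.18, SE, adjusted p = 0.854), an interval that holds no fall of the size seen for JUN. IER5 had log2 ratios of −1.01, −1.02 and −1.63 with zotatifin, against −1.53, −1.15 and −1.16 with vehicle. Its TE change was 1.05-fold (95% interval 0.707 to 1.56, adjusted p = 0.942), which leaves a wide range.

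JUND and JUNB showed no called change of TE either. JUND had log2 ratios of −2.54, −2.21 and −2.35 with zotatifin, against −2.40, −2.49 and −2.83 with vehicle (log2 difference 0.21 ± 0.20, SE, adjusted p = 0.670). JUNB had log2 ratios of −0.89, −0.53 and −0.91 with zotatifin, against −0.79, −0.28 and −0.66 with vehicle (−0.20 ± 0.27, adjusted p = 0.772). In neither gene did the groups separate.

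The difference between JUN and other members was described tumour by tumour, as the log2 TE of JUN minus that of the other gene. JUN and the 4 other genes were chosen with these values known, and FOS, EGR1 and ATF3 were not compared in this way. Against IER2 the difference was −2.47 ± 0.17 with zotatifin and −1.27 ± 0.17 with vehicle (SD, n = 3 each). Against JUND it was −0.26 ± 0.34 and 1.07 ± 0.21, against IER5 −1.41 ± 0.34 and −0.22 ± 0.27, and against JUNB −1.86 ± 0.35 and −0.93 ± 0.31 (zotatifin, then vehicle). In all 4 pairs the treatments did not overlap, but each pair holds the same JUN values, so the 4 are not separate observations. The two-sided exact permutation test gave p = 0.1 for each (0.1 after adjustment over the 4), the smallest that 3 against 3 allows. Because no smaller p was possible, this test cannot decide whether JUN differed from these members.

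EGR1 and FOS had the largest upward TE differences among the members, and neither passed the test. EGR1 had log2 ratios of −1.84, −0.28 and −1.34 with zotatifin, against −1.84, −2.09 and −1.99 with vehicle (log2 difference 0.84 ± 0.37, SE, adjusted p = 0.258). Zotatifin tumour 1 was level with the highest vehicle tumour. The authors' deposited table gave EGR1 a log2 change of 0.95 with an FDR of 0.023. FOS had log2 ratios of 0.49, 0.07 and 1.19 with zotatifin, against 1.04, −0.88 and −0.17 with vehicle (0.96 ± 0.57, adjusted p = 0.440), and its groups overlapped. ATF3 differed by 0.22 ± 0.26 (adjusted p = 0.739).

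**Figure D3:**
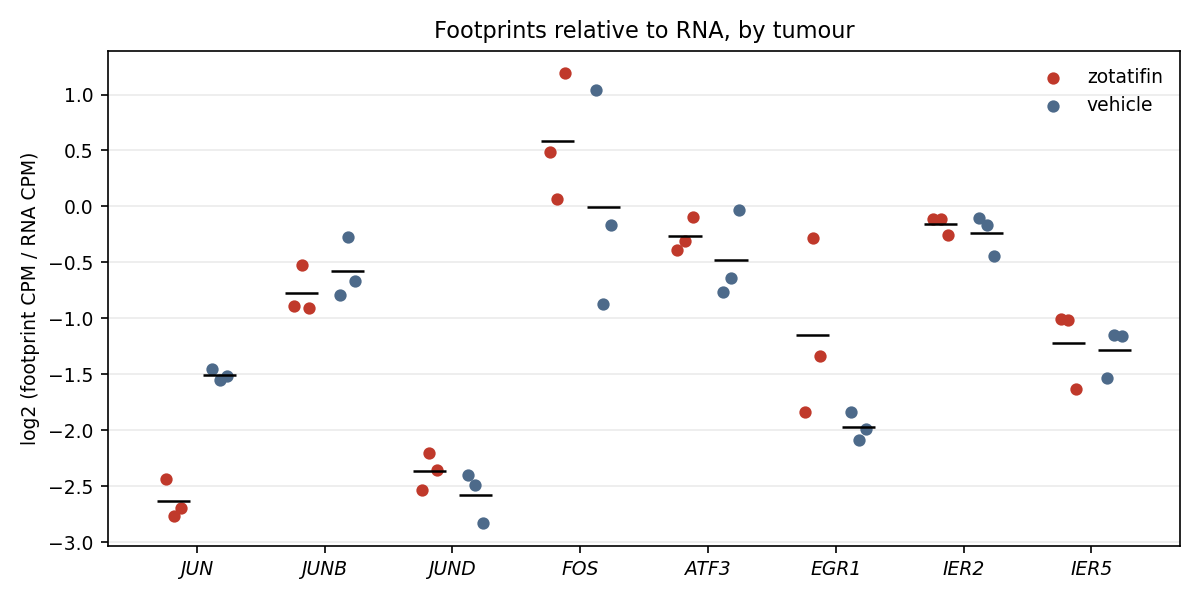
Log2 ratio of footprint to RNA CPM in each tumour for the 8 members tested, with zotatifin in red on the left, vehicle in blue on the right and bars for means. JUN lies at −2.76 to −2.43 with zotatifin, below its vehicle tumours at −1.55 to −1.45, and the other members overlap or nearly touch.

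Within the JUN family, the make-up of RNA and of footprints can be set side by side. Of all RNA counts of JUN, JUNB and JUND, JUN held 43.8% ± 2.76 with zotatifin and 24.8% ± 2.89 with vehicle (SD, n = 3 each), and the groups did not overlap. Of their footprint counts, JUN held 35.5% ± 4.0 with zotatifin and 35.3% ± 5.54 with vehicle, from 71, 56 and 78 counts and 77, 76 and 73 counts. JUND held 51.3% ± 2.67 of RNA counts with zotatifin and 68.5% ± 3.04 with vehicle, and 49.9% ± 4.35 and 46.6% ± 6.85 of footprint counts. JUN thus gained share among the RNA counts of the family, and its mean share of footprint counts differed by less than the spread between tumours. These shares are of counts, with no correction for length.

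The 3 members with higher RNA were set against all genes whose RNA rose. Of 106 such genes, 101 were tested for TE: 25 fell in TE and 0 rose, with a median log2 TE change of −0.61. At an unadjusted p under 0.05, edgeR had 56 of them lower and 0 higher in TE, and DESeq2 called 26 lower and 0 higher. At an RNA median of 0.63, the median footprint difference of these 101 genes was 0.050, and 10 of them rose in footprints while 8 fell. RNA enters both the choice of these genes and their TE, so these counts describe the set and are no test. In this set JUN had the 12th lowest TE change, IER2 the 4th highest and IER5 the 5th highest of 101. JUN was thus 1 of 25 with a called fall of TE, and IER2 was 1 of 10 with called rises in both RNA and footprints.

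**Figure D4:**
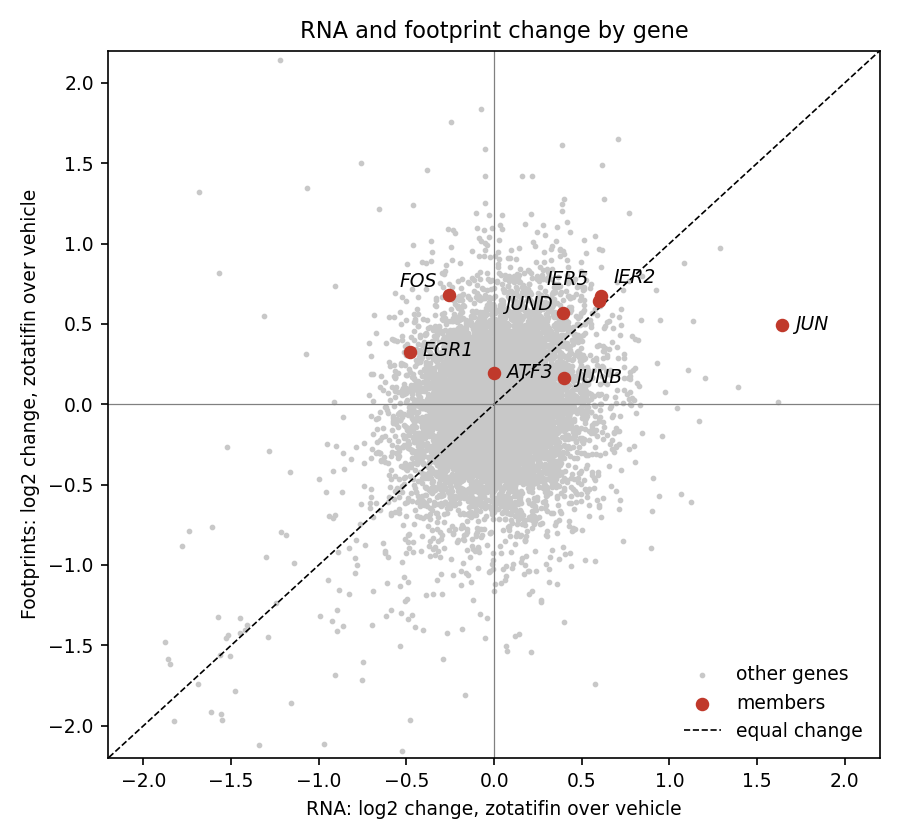
Log2 change in RNA (horizontal) and in footprints (vertical), zotatifin over vehicle, for 9447 genes tested in both assays, with 7 outside the axes. Members are red and named, and the dashed line marks equal change. IER2, IER5 and JUND lie near the line, while JUN, at 1.64 and 0.49, lies far to its right.

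By the pattern over the 12 libraries after the mean of each assay was removed, the genes most like JUN among 4889 were ELP6 (Pearson r = 0.956), ZNF330 (0.941), TBCC (0.935), IRX3 (0.931) and EIF6 (0.931). In RNA these genes differed by 0.41 to 1.11 on the log2 scale and in footprints by 0.029 to 0.29. TBCC, IRX3 and EIF6 were called in RNA, and ELP6 and ZNF330 were not. None of them was called in footprints, and only IRX3 was called in TE. The genes most like IER2 were EIF4A2 (r = 0.943), SBNO2 (0.942), RTKN (0.939), CEBPD (0.936) and QTRT1 (0.932). Their log2 differences were 0.35 to 0.60 in RNA and 0.50 to 0.73 in footprints. RTKN and CEBPD were called in RNA, and EIF4A2, RTKN and QTRT1 in footprints. SBNO2 was called in neither assay, and none of them in TE. These correlations describe libraries that share treatment and depth.

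Other genes of the pathway were read from 4 lists. Over all genes tested, 1.72% were called in RNA, 7.14% in footprints and 1.69% in TE. Counts near these shares are no result about a list. Of 24 other AP-1 and partner bZIP factors, 20 were tested in RNA, 15 in footprints and 15 in TE, and edgeR and DESeq2 called 0 in each. At an unadjusted p under 0.05, edgeR had 2 higher and 1 lower in RNA, 2 and 3 in footprints, and 0 and 3 in TE. The median log2 difference of this list was 0.0081 in RNA and −0.19 in footprints.

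Of 41 other immediate early genes, 35 were tested in RNA, where 1 rose and 0 fell (median −0.015; DESeq2 called 2 and 1, and edgeR had 4 and 1 at an unadjusted p under 0.05). That gene was RHOB, a small GTPase, with 167, 199 and 159 CPM of RNA in zotatifin tumours, against 102, 115 and 103 CPM in vehicle tumours (log2 change 0.71 ± 0.12, SE, adjusted p = 0.0062). Its footprints did not follow, at 99.8, 94.4 and 80.2 CPM with zotatifin, against 92.9, 113 and 119 CPM with vehicle, and its TE fell (log2 change −0.93, adjusted p = 0.0063). Of 28 tested in footprints, 1 rose and 1 fell (median 0.18), about the share called over all genes. In TE 2 rose and 1 fell (median 0.00045). DESeq2 called 0 higher and 1 lower in footprints, and 2 and 1 in TE. At an unadjusted p under 0.05, edgeR had 5 higher and 2 lower in footprints, and 4 and 3 in TE. The RNA-binding proteins ZFP36L1 and ZFP36L2 speed the decay of AU-rich mRNAs such as those of early genes. They rose in TE by 0.82 ± 0.20 (adjusted p = 0.030) and 1.00 ± 0.27 (adjusted p = 0.049). For ZFP36L1 neither part was called: RNA differed by −0.45 (adjusted p = 0.055) and footprints by 0.35 (adjusted p = 0.182). DESeq2 called its RNA lower (adjusted p = 0.017). ZFP36L2 rose in footprints as well, with 41.7, 57.6 and 46.6 CPM against 37.3, 28.3 and 23.5 CPM with vehicle (log2 change 0.66, adjusted p = 0.031), and ID2, an inhibitor of helix-loop-helix factors, fell (−0.62, adjusted p = 0.015).

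Of 44 kinases, phosphatases and factors upstream of these genes, 2 of 43 tested rose in RNA and 0 fell: DUSP10 (log2 change 0.82, adjusted p = 0.041) and DUSP16 (0.51, adjusted p = 0.042), phosphatases that switch off the JUN kinases. For RNA, edgeR had 6 higher and 4 lower at an unadjusted p under 0.05, and DESeq2 called 2 and 0. In footprints 0 of 38 rose and 2 fell, RPS6KA3 (−0.70, adjusted p = 0.018) and MAP2K1 (−0.52, adjusted p = 0.026), kinases of the ERK cascade, and MAP2K1 also fell in TE (−0.89, adjusted p = 0.011), the 1 call of TE in this list. For footprints, edgeR had 1 higher and 5 lower at an unadjusted p under 0.05, and DESeq2 called 0 and 1. Of 13 genes of AP-1 protein and early mRNA turnover, 1 was called in RNA, 2 of 11 tested in footprints and 2 of 11 in TE. CNOT8, a deadenylase subunit, rose in RNA (0.68, adjusted p = 0.012) and fell in TE (−0.95, adjusted p = 0.0073). CNOT1, the scaffold of the same complex, fell in footprints (−0.43, adjusted p = 0.025) and in TE (−0.76, adjusted p = 0.019), and HNRNPD, which binds AU-rich mRNAs, fell in footprints (−0.40, adjusted p = 0.018). The CNOT8 fall of TE held without any 1 tumour. Each other call named for these lists was lost without at least 1 tumour. Of the 6 fits that left out a tumour, 0 kept the TE call of ZFP36L2. The TE call of ZFP36L1 and the RNA calls of DUSP10 and DUSP16 were each kept in 1 of 6. The footprint calls of ZFP36L2 and MAP2K1 were also lost with DESeq2 (adjusted p = 0.066 and 0.061).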

How the data were processed

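Ribosome footprints and RNA were counted in 12 libraries, 6 per assay. Per the submitters' processing notes, the build was hg38, with DESeq2, Bowtie2 2.3.5, UMI-tools and cutadapt 2.3; which transcript part was counted, and whether mouse reads were removed, is not given in the sources used here. The deposited tables hold raw counts per transcript. The authors' RNA comparison holds a mean normalised signal, a log2 fold change, a Wald score and plain and adjusted p-values. In the authors' TE table the estimate was read as natural log: over 1566 genes it had weights of 0.665 and −0.666 on the log2 footprint and RNA changes, where the natural log of 2 is 0.693. Groups came from titles. The treatment field contradicts them for 6 samples: it gives zotatifin for the vehicle footprints and none for the zotatifin RNA. Count columns are headed Vehicle or with a code number, read here as zotatifin's development name; every direction rests on this reading.

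Tests used edgeR 4.0.16 in R 4.3.3: filterByExpr (minimum count 10, minimum total 15), TMM, robust quasi-likelihood F test, Benjamini-Hochberg over all genes tested, adjusted p under 0.05. Intervals are at 95%. The code was tested on simulated data. DESeq2 1.42.0 was an alternative. In footprints it gave some genes no adjusted p, among them DUSP10 and DUSP16, and its counts of calls leave such genes out. Footprint and RNA libraries of 1 tumour, made from the same lysate per the labels, correlated at 0.217 to 0.440 after group means were removed (6 pairs), and other numbers at −0.381 to 0.119. Zotatifin and vehicle libraries of the same number correlated at −0.095 to 0.181, so numbers do not pair treatments. Members, lists and motifs were chosen with earlier results of these data known. All members were named, and pathway genes where called. For JUN and IER2, the 5 genes with the highest correlation over genes averaging at least 50 counts in each assay (prior count 2) were named. Promoters and positions came from RefSeq genes, whose outermost start may not be that of the counted transcript.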

Additional observations from a re-analysis of the deposited data

Results flagged for a closer look

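The responses of footprints and RNA differed by the interaction test for JUN, whose TE changed by −1.12 on the log2 scale. The same test passed for RHOB (−0.93), CNOT8 (−0.95), CNOT1 (−0.76) and MAP2K1 (−0.89), where TE was lower with zotatifin, and for ZFP36L1 (0.82) and ZFP36L2 (1.00), where it was higher. Of 6 fits that left out a tumour, 1 kept the call of ZFP36L1 and 0 that of ZFP36L2.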

How the results depend on the processing

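Calls over all genes depended on single tumours: leaving out 1 gave 11 to 396 genes in RNA, 185 to 726 in footprints and 56 to 132 in TE, against 225, 681 and 160 with all. Of the members, 1 to 3 were then called in RNA, 1 to 2 in footprints and 0 to 1 in TE. DESeq2 called 355 genes in RNA and 434 in footprints, with 1 member in footprints, where only JUN, JUND and IER2 had an adjusted p. RNA gave 624 calls with no filter, 140 with a mean of at least 50 counts and 527 with the replicate number as a block. For TE, 819 genes were called with the tumour as a replicate block, and 2092 genes (2 members) in the authors' deposited table. Blocking changed no call of a member. Signs turned for the following differences, none of which passed the test. ATF3 RNA was −0.0053 with RLE size factors, −0.0052 with DESeq2, −0.017 with the stricter filter, −0.00057 with the block and −0.092 to 0.091 leaving out a tumour. Leaving out a tumour gave −0.20 to 0.21 for IER3 RNA, −0.64 to 0.052 for FOS RNA, −0.027 to 0.33 for JUNB footprints, −0.061 to 0.26 for DUSP16 footprints, −0.065 to 0.28 for IER5 TE and −0.0096 to 0.15 for IER2 TE. The causes were not tested. Footprint depth limits FOS, EGR1 and IER5, and FOSL2 and IER3 could not be tested.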
